A study of Homo sapiens with 12 samples.

Results

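The ID genes and the BMP-SMAD response are described here as a set of 10 human genes: ID1, ID2, ID3, ID4, SMAD6, SMAD7, SMAD9, BAMBI, BMP2 and BMP4. They were chosen by gene symbol with earlier results of these data known, so their counts against all genes are descriptions. All 10 were found among the 57905 genes of the deposited expression table. RNA was sequenced in bulk from PC9, HCC827 and HCC4006, which are established lung cancer cell lines carrying a mutant EGFR gene. In each line, control plates received the solvent DMSO for 24 hours, and plates labelled dormant received osimertinib at 100 nM and trametinib at 30 nM for 2 weeks. Osimertinib blocks mutant EGFR and trametinib blocks the kinase MEK further down the same pathway. All groups share the mutant EGFR of their line, and no group received DMSO for as long as the drugs were given.

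The 12 libraries form 6 groups of 2, and duplicate plates are all that the labels report, so p-values measure only the spread between these samples, which may be technical. Drug, duration of culture and dish size change together between the groups and cannot be told apart. In these bulk values, fewer cells of a type and less RNA per cell cannot be told apart either.

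ID proteins are helix-loop-helix factors without a DNA-binding region. They pair with E proteins, the common partners of cell-type-specific transcription factors, and keep them off DNA. BMP ligands bind paired kinase receptors that phosphorylate SMAD1, SMAD5 and SMAD9. These enter the nucleus with SMAD4 and act on target genes, of which the ID genes are the best known. SMAD6 and SMAD7 are inhibitory SMADs that the pathway induces against itself, and BAMBI is a receptor-like protein without a kinase that also dampens the signal.

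Promoter sequence was available for 9 of the 10 genes, and 7 of these had 1 annotated window. The 5 promoters below are shown because they belong to the ID genes with the highest levels and to SMAD6 and BAMBI, feedback inhibitors with 1 annotated window each. Each is the 250 bases before the annotated start, written 5′ to 3′ on the gene's own strand, from RefSeq on GRCh38.p14, a later build than the hg19 of the expression values. Capitals mark matches, on either strand, to 5 motifs: the GC-rich SMAD box GGCGCC, the SMAD palindrome GTCTAGAC, a shorter SMAD-binding motif GTCTG, the TATA box TATAAA and the CCAAT box CCAAT.
ID1 (chr20:31605039-31605288, plus strand): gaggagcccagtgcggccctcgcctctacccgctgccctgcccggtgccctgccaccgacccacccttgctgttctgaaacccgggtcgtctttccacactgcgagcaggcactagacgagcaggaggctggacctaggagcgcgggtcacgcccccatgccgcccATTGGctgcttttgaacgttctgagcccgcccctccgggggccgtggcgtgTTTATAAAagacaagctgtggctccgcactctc
ID2 (chr2:8681806-8682055, plus strand): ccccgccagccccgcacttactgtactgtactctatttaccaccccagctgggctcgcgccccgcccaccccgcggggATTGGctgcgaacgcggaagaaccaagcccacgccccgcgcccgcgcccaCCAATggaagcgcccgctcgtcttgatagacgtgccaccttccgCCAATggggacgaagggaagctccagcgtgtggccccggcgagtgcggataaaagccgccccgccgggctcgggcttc
ID3 (chr1:23559502-23559751, minus strand): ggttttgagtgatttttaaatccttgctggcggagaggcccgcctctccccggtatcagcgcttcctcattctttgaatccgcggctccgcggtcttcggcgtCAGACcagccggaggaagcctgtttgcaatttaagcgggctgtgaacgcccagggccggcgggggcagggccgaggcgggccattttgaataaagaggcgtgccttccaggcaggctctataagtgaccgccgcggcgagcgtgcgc
SMAD6 (chr15:66701986-66702235, plus strand): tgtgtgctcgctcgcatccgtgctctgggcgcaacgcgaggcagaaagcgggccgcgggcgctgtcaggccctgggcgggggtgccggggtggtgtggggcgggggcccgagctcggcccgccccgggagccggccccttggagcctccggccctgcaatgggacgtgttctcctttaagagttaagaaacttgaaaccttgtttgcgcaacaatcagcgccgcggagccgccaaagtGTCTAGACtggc
BAMBI (chr10:28677271-28677520, plus strand): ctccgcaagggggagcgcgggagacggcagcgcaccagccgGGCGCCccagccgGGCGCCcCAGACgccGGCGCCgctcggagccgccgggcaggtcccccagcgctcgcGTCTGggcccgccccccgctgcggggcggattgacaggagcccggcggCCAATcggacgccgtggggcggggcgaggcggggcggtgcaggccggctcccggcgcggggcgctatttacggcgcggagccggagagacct

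The SMAD6 window held the palindrome GTCTAGAC 12 bases before the start, a motif present in 0.182% of 35116 promoter windows of the same length. BAMBI held 3 copies of GGCGCC and 2 of GTCTG, in a window that was 81.2% G or C. Windows with 1 copy or more were 16.4% of all for GGCGCC and 38% for GTCTG. ID3 and ID4 held 1 GTCTG each, and windows of SMAD7 and BMP4 also held it. A window of BMP4 held GGCGCC as well. ID1 held 2 overlapping TATAAA matches, the farther one beginning 33 bases before the start, and 1 CCAAT. ID2 held 3 CCAAT matches. TATAAA occurred in 10.7% of all windows and CCAAT in 32% of them. These are letter matches from a search of 8 motifs in short windows. The absence of a match says only that the letters are not in that window.

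Levels are in FPKM, a unit that divides fragments by gene length and by library size, so that genes can be set side by side. Differences are on the log2(FPKM + 1) scale, dormant minus DMSO, with the standard error of the fit. A gene was tested with limma if it reached 1 FPKM in 2 libraries or more, and it is said to rise or fall where the p-value adjusted over all 14699 tested genes was under 0.05. Of the 10 genes 8 were tested; SMAD6 and BMP2 were not. ID4 and SMAD9 reached 1 FPKM only in dormant libraries, so passing the filter was not independent of their difference. SMAD9 did so only in dormant HCC4006, so its tests between lines were not independent of the filter either. Counts below that include ID4 or SMAD9 are descriptions.

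There were 2 libraries that stood apart. In the second HCC4006 dormant library GAPDH was at 6.725 FPKM against at least 3755.3 in the other 11, 1948 of the tested genes were at 0, and r with its replicate was 0.654. The second HCC827 DMSO library had ACTB at 1842.5 FPKM and r of 0.909 with its replicate. Other replicate pairs had r of 0.979 to 0.991. Depth is unknown. Relative to the first PC9 DMSO library it was 36.6% in the second HCC4006 dormant library by the value of single reads, an estimate from 8 values, and 64.9% to 104.3% elsewhere. Epithelial markers summed to 483.4 FPKM or more in every library, with both lowest sums in the 2 libraries that stood apart. In the second HCC4006 dormant library KRT8, KRT18 and KRT19 were at 5.87, 13.0 and 9.9 FPKM. The first had them at 685.7, 526.4 and 363.3 FPKM. CDH1 was also lower in the second, at 25.9 against 51.8 FPKM, and EPCAM was higher, at 428.8 against 208.8 FPKM. Of 3 leukocyte markers CD3E was at 0 in all 12 libraries, and none reached 1 FPKM. Their sum was 0.05 FPKM at most in PC9 DMSO and 0.595 to 1.09 FPKM in dormant PC9, mostly CD14. The sum of 4 fibroblast markers was 0.565 to 0.955 FPKM in HCC4006 DMSO and 7.94 to 13.4 FPKM in dormant HCC4006, and 0.605 to 1.54 then 3.46 to 3.69 FPKM in HCC827. In dormant HCC4006 most of it was COL1A1, a collagen, at 7.45 and 12.2 FPKM, and COL1A1 was at 2.83 and 2.7 FPKM in dormant HCC827. PDGFRB was at 0 in HCC4006 DMSO and at 0 and 1.12 FPKM in dormant HCC4006. LUM was at 0.055 and 1.18 FPKM in HCC827 DMSO and at 0.82 and 0.66 FPKM in dormant HCC827. DCN did not exceed 0.105 FPKM in any library. VWF, of endothelium, was at 3.05 FPKM in the second HCC4006 dormant library and CDH5 there at 0. The part of these markers in the results was not tested. Counts, and calls that change, are also given without the 2 libraries. That fit leaves 1 library in HCC827 DMSO and 1 in dormant HCC4006, so their spread is taken from the other groups. A fit without any 1 library likewise leaves 1 in its group.

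ID3 and ID2 rose over the 3 lines, SMAD7 and SMAD9 rose with smaller differences, and ID1, the ID gene with the highest mean level in every DMSO group, did not pass the test. In the mean of the 3 lines' differences 4 of the 8 tested genes rose and none fell, where 10.9% of all tested genes rose and 4.55% fell. At an unadjusted p under 0.05, 7 were higher and none lower, against 22.6% and 9.64% of all tested genes. The median difference of the 8 genes was 1.06 log2, against 0.22 over all tested genes. Without the 2 libraries that stood apart 7 of 8 rose, all but ID1, and again none fell, but of all genes 30% then rose and 12.8% fell. The mean differences were then 3.36 log2 for ID3, 2.2 for ID2, 1.07 for SMAD7, 1.04 for BMP4, 0.90 for ID4, 0.60 for SMAD9, 0.60 for BAMBI and 0.27 for ID1. In ID2, ID3, ID4 and SMAD7 every dormant library lay above every DMSO library within each of the 3 lines. That is 4 of 8 genes, against 9.12% of all tested genes. ID4 here, and SMAD9 among the genes that rose, passed the filter only through dormant libraries, so these counts are descriptions. Line by line, dormant libraries lay wholly above DMSO for 5 of the 8 genes in PC9, 6 in HCC827 and 6 in HCC4006, where 35.5%, 40.1% and 30.4% of all genes did. They lay wholly below for 2 genes in PC9, ID1 and SMAD9, where 27% of all genes did.

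**Figure D1:**
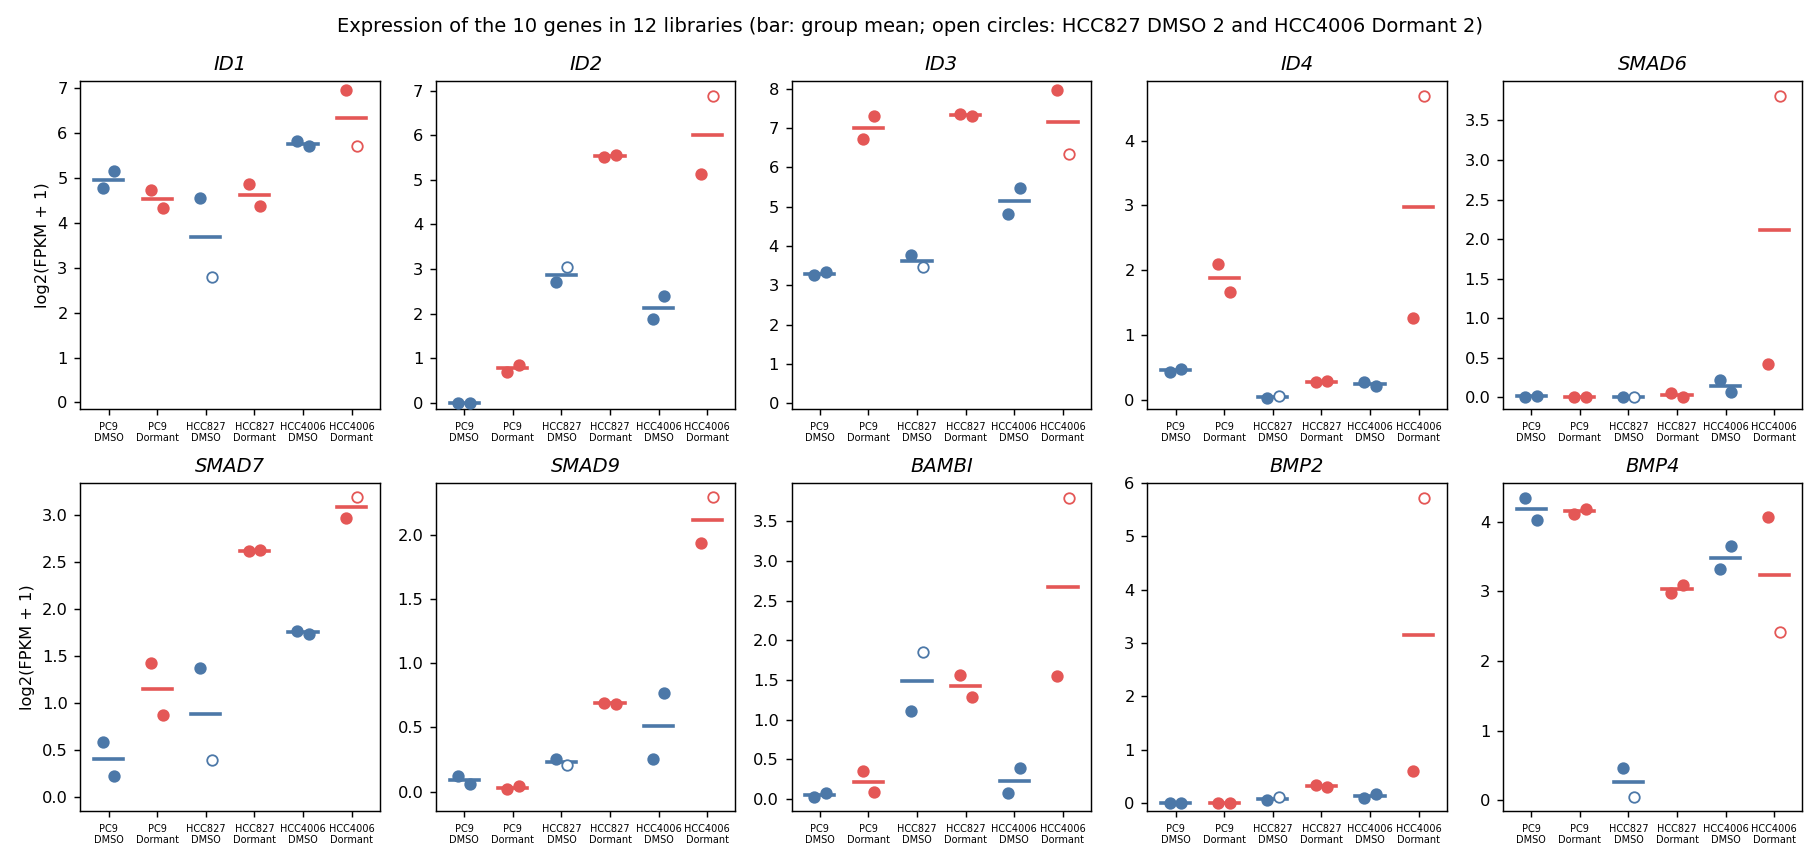
Each panel plots log2(FPKM + 1) of 1 gene in the 12 libraries, with blue points for DMSO, red points for dormant cells and a bar at each group mean; the vertical axes differ in range. Open circles are the 2 libraries that stood apart, and the dormant points of ID3 lie above the DMSO points of the same line in all 3 lines.

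ID3 had the largest mean difference of the set. In PC9 it was at 8.54 and 9.04 FPKM in DMSO and at 103.3 and 156.1 FPKM in dormant cells. In HCC827 it was at 12.7 and 9.96 FPKM in DMSO and at 163.4 and 156.3 FPKM in dormant cells. In HCC4006 it was at 27.3 and 43.2 FPKM in DMSO and at 247.2 and 80.2 FPKM in dormant cells. The groups did not overlap in any line, and the lowest dormant value of all, 80.2 FPKM, came from the library with low GAPDH.

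The ratio of mean ID3 levels, dormant over DMSO, was 14.8 in PC9, 14.1 in HCC827 and 4.64 in HCC4006. ID3 rose in PC9 by 3.71 ± 0.58 log2 (SE; limma adjusted p = 0.00898) and in HCC827 by 3.71 ± 0.58 (limma adjusted p = 0.00764). In HCC4006 the difference was 2.01 ± 0.58 and did not pass (limma adjusted p = 0.0686). With the 2 libraries that stood apart left out, the HCC4006 difference was 2.81, resting on 1 dormant library. The mean over lines was 3.14 ± 0.33 (limma adjusted p = 0.000485), rank 32 of all tested genes by size, and its adjusted p reached at most 0.00424 when any 1 library was left out.

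The PC9 call of ID3 was lost without any 1 of the 4 PC9 libraries, where the difference ranged from 3.41 to 4.0 and the adjusted p reached 0.149. The HCC827 call was lost without the second DMSO or either dormant library, with differences of 3.55 to 3.75 and adjusted p up to 0.112. HCC4006 passed without its first dormant library (1.2, adjusted p = 0.0466) or its second (2.81, adjusted p = 0.00389).

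ID2 was listed at 0 in both PC9 DMSO libraries and at 0.61 and 0.8 FPKM in dormant PC9. HCC827 libraries had it at 5.54 and 7.2 FPKM in DMSO and at 45.1 and 46.3 FPKM in dormant cells. HCC4006 libraries had it at 2.65 and 4.26 FPKM in DMSO and at 34.3 and 116.7 FPKM in dormant cells. Dormant libraries were higher in every line, and all PC9 libraries lay below every library of HCC827 and HCC4006.

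ID2 rose in HCC827 by 2.67 ± 0.55 log2 (limma adjusted p = 0.0241) and in HCC4006 by 3.88 ± 0.55 (limma adjusted p = 0.00402). The PC9 difference was 0.77 ± 0.55 (limma adjusted p = 0.732). It depended on the 1 added to levels at or near 0: with 0.1 added it was 3.0 and passed (adjusted p = 0.0469), and it also passed with array quality weights (adjusted p = 0.015). The mean over lines was 2.44 ± 0.32 (limma adjusted p = 0.00119), with an adjusted p of at most 0.00898 when any 1 library was left out. Whether the difference varied between lines did not pass a moderated F test (limma adjusted p = 0.188), but it did without the 2 libraries that stood apart (adjusted p = 0.0106), where the HCC4006 difference was 3.01.

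The HCC827 call of ID2 was lost without any 1 PC9 or HCC827 library, with differences of 2.51 to 2.84 and adjusted p up to 0.212. The HCC4006 call was lost only without the first HCC4006 DMSO library among the 12 left out (3.61, adjusted p = 0.0667). An antisense gene, ID2-AS1, overlaps ID2 and was at 0.17 FPKM at most. The library kit keeps strand, but whether the values used it is not given in the sources used here.

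ID1 was at 26.2 and 34.3 FPKM in PC9 DMSO and at 25.3 and 19.1 FPKM in dormant PC9. In HCC827 it was at 22.4 and 5.97 FPKM in DMSO and at 28.1 and 19.6 FPKM in dormant cells. In HCC4006 it was at 55.2 and 51.1 FPKM in DMSO and at 122.1 and 51.0 FPKM in dormant cells. The groups overlapped in HCC827 and HCC4006, and in PC9 both dormant values lay below both DMSO values.

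The ID1 differences were -0.43 ± 0.64 log2 in PC9, 0.94 ± 0.64 in HCC827 and 0.56 ± 0.64 in HCC4006, and none passed (limma adjusted p of 0.496 or more). The mean was 0.36 ± 0.37 (limma adjusted p = 0.534). Without the 2 libraries that stood apart the HCC827 difference was 0.06 and the HCC4006 difference was 1.19, the latter with an adjusted p of 0.0304.

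ID4 was the least expressed ID gene in HCC827 and HCC4006. In PC9 it was at 0.345 and 0.385 FPKM in DMSO and at 3.29 and 2.18 FPKM in dormant cells. In HCC827 it was at 0.02 and 0.04 FPKM in DMSO and at 0.2 and 0.225 FPKM in dormant cells. HCC4006 libraries had it at 0.205 and 0.16 FPKM in DMSO and at 1.4 and 24.8 FPKM in dormant cells. Dormant values lay above DMSO values in each line, and the dormant HCC4006 libraries differed from each other by 3.43 log2.

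The ID4 difference was 1.44 ± 0.81 log2 in PC9, 0.24 ± 0.81 in HCC827 and 2.73 ± 0.81 in HCC4006, with a mean of 1.47 ± 0.47 (limma adjusted p = 0.0616). Without either dormant HCC4006 library the mean passed, at 2.04 without the first (adjusted p = 2e-06) and 0.90 without the second (adjusted p = 0.000217). ID4 then also passed in PC9, at 1.44 in both fits. In HCC4006 it passed at 4.45 without the first dormant library and 1.02 without the second. The size of the ID4 difference in HCC4006 therefore moved by more than 1.5 times with the library left out.

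**Figure D2:**
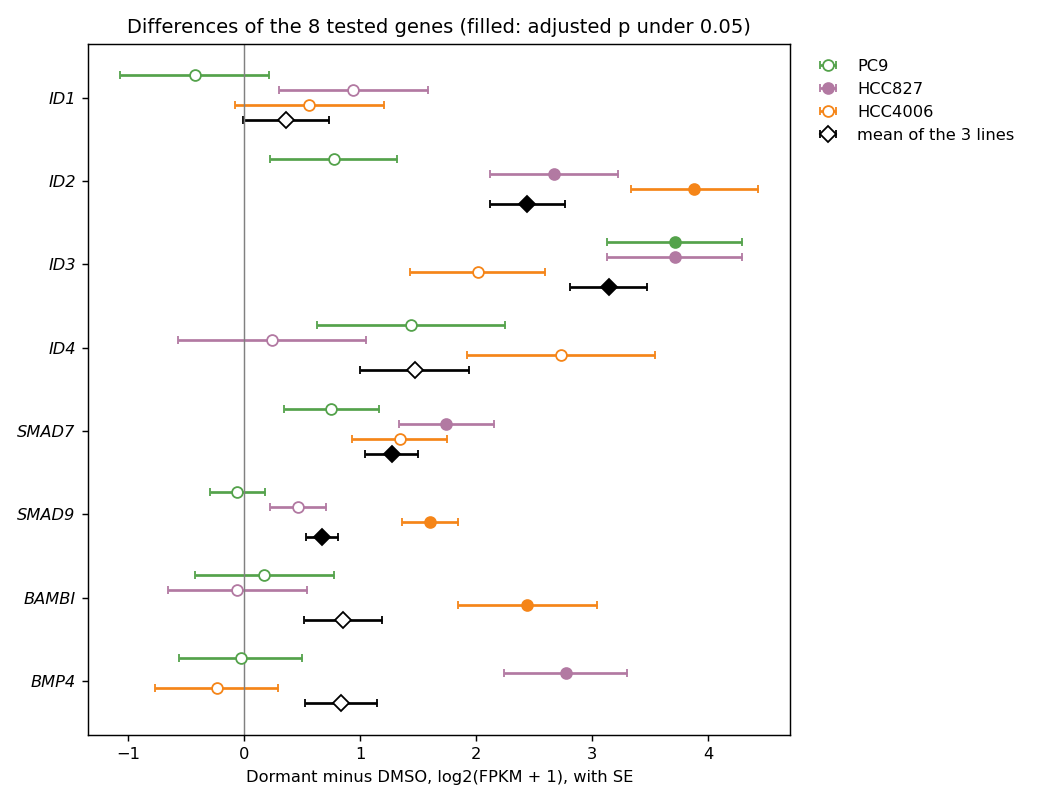
Points show the dormant minus DMSO difference of log2(FPKM + 1) for each tested gene in PC9 (green), HCC827 (purple), HCC4006 (orange) and the mean of the lines (black diamonds), with bars of 1 standard error; filled symbols have an adjusted p under 0.05. The means of ID2, ID3, SMAD7 and SMAD9 are filled, and the mean of ID1 lies at 0.36.

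The summed level of the 4 ID genes was higher in dormant cells, and in PC9 and HCC827 ID3 took a larger share of it. The sum was 39.4 ± 6.08 FPKM (SD, n = 2) in PC9 DMSO and 155.3 ± 32.4 in dormant PC9. It was 32.0 ± 12.4 and 229.6 ± 10.1 FPKM in HCC827, and 92.1 ± 9.4 and 338.9 ± 93.4 FPKM in HCC4006. No dormant library had a lower sum than any DMSO library, the closest values being 132.4 FPKM in dormant PC9 and 98.7 FPKM in HCC4006 DMSO.

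ID3 made up 22.5% ± 2.55 of the sum in PC9 DMSO and 82.8% ± 6.79 in dormant PC9 (SD, n = 2). The share was 37.1% ± 8.27 and 69.7% ± 0.919 in HCC827, and 37.9% ± 8.34 and 45.2% ± 22.3 in HCC4006. The dormant HCC4006 libraries were at 61.0% and 29.4%, on either side of the DMSO values of 32.0% and 43.8%. In the second of them ID2 made up 42.8% of the sum.

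The ratio of ID3 to ID1 was 0.326 and 0.264 in PC9 DMSO and 4.08 and 8.16 in dormant PC9. It was 0.567 and 1.67 in HCC827 DMSO and 5.82 and 7.99 in dormant HCC827. It was 0.494 and 0.846 in HCC4006 DMSO and 2.02 and 1.57 in dormant HCC4006. Within each line the ratio was higher in both dormant libraries than in both DMSO libraries, and the HCC827 DMSO library at 1.67 was above the lowest dormant value of HCC4006. These sums and ratios are descriptions over chosen genes and carry no test.

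**Figure D3:**
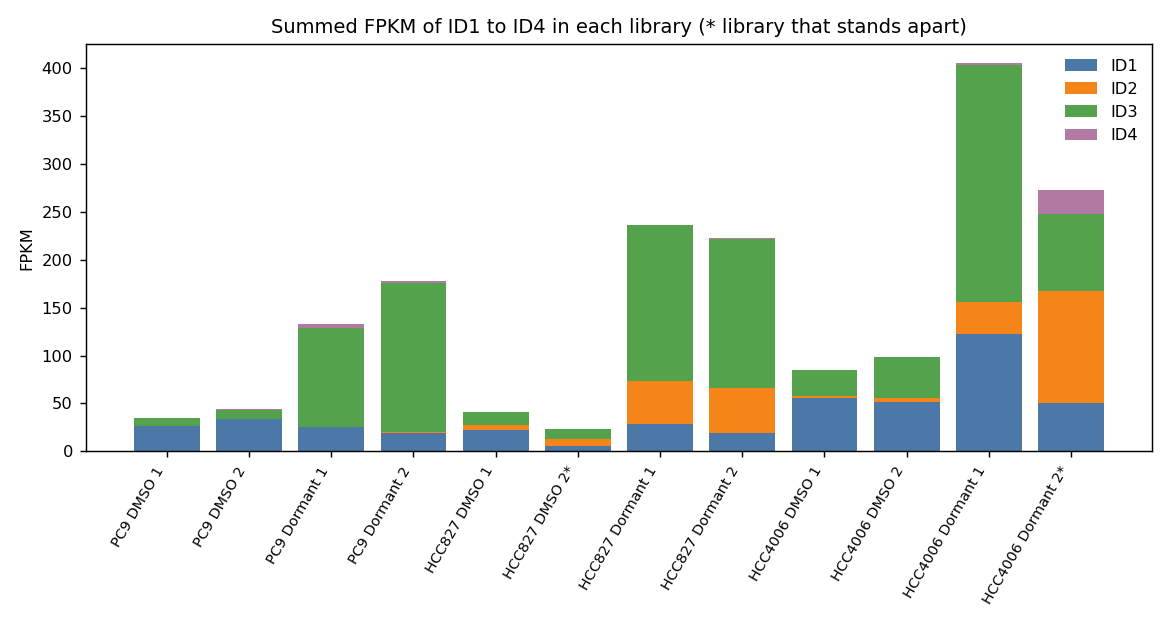
Stacked bars show the FPKM of ID1, ID2, ID3 and ID4 in each of the 12 libraries, with an asterisk on the 2 libraries that stood apart. ID3 is the largest part of every dormant bar except the second HCC4006 bar, where ID2 is.

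Of the inhibitory SMADs, SMAD7 rose. In PC9 it was at 0.495 and 0.165 FPKM in DMSO and at 1.69 and 0.825 FPKM in dormant cells. HCC827 libraries had it at 1.58 and 0.31 FPKM in DMSO and at 5.13 and 5.16 FPKM in dormant cells. In HCC4006 it was at 2.4 and 2.33 FPKM in DMSO and at 6.84 and 8.16 FPKM in dormant cells. The groups did not overlap in any line, and no library exceeded 8.16 FPKM.

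SMAD7 rose in HCC827 by 1.74 ± 0.41 log2 (limma adjusted p = 0.0413), with differences of 0.75 ± 0.41 in PC9 and 1.34 ± 0.41 in HCC4006 (limma adjusted p = 0.556 and 0.0767). The mean over lines was 1.27 ± 0.23 (limma adjusted p = 0.00652), and its adjusted p stayed at or under 0.0364 whichever library was left out. The HCC827 call was lost in 9 of the 12 fits that left out 1 library, those without any PC9 library, any HCC827 library but the first DMSO one, or either HCC4006 DMSO library, with adjusted p up to 0.285 and a difference of 1.25 at the lowest, without the second HCC827 DMSO library. HCC4006 passed without its first dormant library (1.45, adjusted p = 0.0122), and without the 2 libraries that stood apart (1.22, adjusted p = 0.0283).

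SMAD6 was below the level for testing. It was at 0.015 FPKM or listed at 0 in PC9, and at 0.035 FPKM or below in HCC827. HCC4006 libraries had it at 0.165 and 0.05 FPKM in DMSO and at 0.335 and 13.0 FPKM in dormant cells. The value of 13.0 FPKM came from the library with low GAPDH and is the only one over 1 FPKM.

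SMAD9, a SMAD that BMP receptors phosphorylate, rose in HCC4006. There it was at 0.19 and 0.7 FPKM in DMSO and at 2.82 and 3.89 FPKM in dormant cells. In HCC827 it was at 0.19 and 0.155 FPKM in DMSO and at 0.615 and 0.605 FPKM in dormant cells. In PC9 it was at 0.09 and 0.04 FPKM in DMSO and at 0.015 and 0.03 FPKM in dormant cells. Dormant values were apart from and above DMSO values in HCC4006 and HCC827, and below them in PC9.

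The SMAD9 difference was 1.60 ± 0.24 log2 in HCC4006 (limma adjusted p = 0.00523), 0.46 ± 0.24 in HCC827 and -0.06 ± 0.24 in PC9, with a mean of 0.67 ± 0.14 (limma adjusted p = 0.0107). Adding 1 to such low values makes these differences smaller than the ratio of levels. The HCC4006 call was lost without the first HCC4006 DMSO library (1.35, adjusted p = 0.072). SMAD9 was tested in 10 of the 12 fits without 1 library, since it fell under the filter without either dormant HCC4006 library, and its mean passed in those 10.

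BAMBI, the pseudoreceptor, passed the test in HCC4006. It was at 0.05 and 0.315 FPKM in HCC4006 DMSO and at 1.93 and 12.9 FPKM in dormant HCC4006. HCC827 libraries had it at 1.16 and 2.62 FPKM in DMSO and at 1.96 and 1.44 FPKM in dormant cells, and these groups overlapped. In PC9 it was at 0.02 and 0.05 FPKM in DMSO and at 0.28 and 0.06 FPKM in dormant cells, low values that did not overlap.

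The BAMBI difference in HCC4006 was 2.44 ± 0.60 log2 (limma adjusted p = 0.0425), against -0.06 ± 0.60 in HCC827 and 0.17 ± 0.60 in PC9. Whether it varied between lines did not pass (moderated F test, adjusted p = 0.326). The HCC4006 call was lost in 10 of the 12 fits without 1 library, all but those without a dormant HCC4006 library, with adjusted p up to 0.29. Without the second dormant HCC4006 library it was 1.32 (adjusted p = 0.0257). The mean over lines was 0.85 ± 0.34 and did not pass (limma adjusted p = 0.121), but it passed at 1.23 and 0.48 without the first or second dormant HCC4006 library (adjusted p = 0.000167 and 0.0392).

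Of the ligands, BMP4 rose in HCC827 and had overlapping levels in the groups of the other lines. It was at 0.38 and 0.04 FPKM in HCC827 DMSO and at 6.87 and 7.52 FPKM in dormant HCC827. In PC9 it was at 19.3 and 15.2 FPKM in DMSO and at 16.3 and 17.2 FPKM in dormant cells. In HCC4006 it was at 8.96 and 11.5 FPKM in DMSO and at 15.7 and 4.34 FPKM in dormant cells. The groups overlapped in PC9 and HCC4006, and dormant HCC827 stayed below every PC9 library.

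BMP4 rose in HCC827 by 2.77 ± 0.53 log2 (limma adjusted p = 0.0187), with differences of -0.03 ± 0.53 in PC9 and -0.24 ± 0.53 in HCC4006. Whether the difference varied between lines did not pass (moderated F test, adjusted p = 0.139), but it passed without the 2 libraries that stood apart (adjusted p = 0.00686). The HCC827 call was lost without the second DMSO or either dormant HCC827 library, with differences of 2.57 to 2.83 and adjusted p up to 0.18. Without the first dormant HCC4006 library the HCC4006 difference was -1.07 (adjusted p = 0.0377). The mean over lines was 0.83 ± 0.31 (limma adjusted p = 0.0948), and it passed at 0.56 and 1.11 without the first or second dormant HCC4006 library (adjusted p = 0.0384 and 0.00185).

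BMP2, a ligand closely related to BMP4, was listed at 0 in all 4 PC9 libraries. In HCC827 it was at 0.035 and 0.08 FPKM in DMSO and at 0.26 and 0.235 FPKM in dormant cells. HCC4006 libraries had it at 0.07 and 0.12 FPKM in DMSO and at 0.505 and 51.7 FPKM in dormant cells. As with SMAD6, the high value came from the library with low GAPDH, and no other library reached 1 FPKM.

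By line, the number of the 8 tested genes that rose was 1 in PC9 (ID3), 4 in HCC827 (ID2, ID3, SMAD7 and BMP4) and 3 in HCC4006 (ID2, SMAD9 and BAMBI). The shares of all tested genes that rose were 1.82%, 3.06% and 4.88%. None fell in any line, where 0.891%, 1.44% and 1.18% of all genes did. At an unadjusted p under 0.05 none was lower either, against 4.8%, 5.42% and 7.91% of all genes. No gene of the set passed in all 3 lines, as 0.225% of all genes did in the upward direction. With the 2 libraries that stood apart left out, the counts were 2, 4 and 7 higher and none lower, against 13.1%, 11.1% and 14.9% of all genes higher and 8.65%, 6.57% and 3.72% lower. The median difference of the 8 genes was 0.46 log2 in PC9, 1.34 in HCC827 and 1.80 in HCC4006, against 0.0477, 0.219 and 0.155 over all tested genes.

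No gene of the set passed limma's moderated F test for a difference that varied between lines, where 1.48% of all genes passed. At an unadjusted p under 0.05, 4 of the 8 did, against 12.4% of all genes. SMAD9 entered the test only through dormant HCC4006, so its result here is a description. With the 2 libraries that stood apart left out, 3 passed (ID2, SMAD9 and BMP4), against 8.92% of all genes.

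The DMSO groups of the lines differed in ID2 and BMP4. In a moderated F test across the DMSO groups these 2 of the 8 passed, where 12% of all genes did (limma adjusted p = 0.016 for ID2 and 0.00203 for BMP4). The ID2 call was lost without either PC9 DMSO library or the second HCC827 DMSO library (adjusted p up to 0.14), and the BMP4 call held whichever library was left out. ID2 was highest in HCC827 DMSO, at 6.37 ± 1.17 FPKM (SD, n = 2), then in HCC4006 DMSO at 3.46 ± 1.15, and was listed at 0 in both PC9 DMSO libraries. BMP4 had the opposite order of PC9 and HCC827, with 17.3 ± 2.94 FPKM in PC9, 10.2 ± 1.82 in HCC4006 and 0.21 ± 0.24 in HCC827. Without the 2 libraries that stood apart 6 of the 8 passed, against 48.4% of all genes.

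Across the dormant groups 4 of the 8 differed between lines (ID2, SMAD7, SMAD9 and BAMBI), where 31.6% of all genes did. SMAD9 passed the filter only through dormant HCC4006, so its call here was not independent of the filter, and the count is a description. The BAMBI call (limma adjusted p = 0.0309) was lost in 8 of the 12 fits without 1 library, those without any PC9, dormant HCC827 or HCC4006 DMSO library (adjusted p up to 0.141). It was also lost with no filter and with median of ratios or quantile scaling. The SMAD7 call (limma adjusted p = 0.014) was lost without the second dormant PC9 library (adjusted p = 0.131). ID3 was not among the 4 (limma adjusted p = 0.881), with dormant means of 129.7 ± 37.4 FPKM in PC9, 159.8 ± 5.01 in HCC827 and 163.7 ± 118.0 in HCC4006 (SD, n = 2). Its range in HCC4006 covered both other lines. For SMAD7 the dormant order was 7.5 ± 0.937 FPKM in HCC4006, 5.15 ± 0.0177 in HCC827 and 1.26 ± 0.615 in PC9, with no overlap between neighbours. With the 2 libraries that stood apart left out, 7 of the 8 differed between dormant groups, all but ID3, against 62.4% of all genes.

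The rest of the pathway was read from 7 lists of genes, chosen with earlier results of these data known. Their counts below are descriptions. They stand against 10.9% of all tested genes that rose and 4.55% that fell in the mean over lines. In that mean without the 2 libraries that stood apart, 30% rose and 12.8% fell. List genes named as rising in that mean also rose without the 2 libraries, by 0.47 to 2.18 log2. Some reached 1 FPKM only in dormant libraries, as ID4 and SMAD9 did, so that their passing the filter was not independent of their difference: BMPR1A, BMPR1B, BMP8B, TCF4, LDLRAD4 and all 5 tested genes of the other BMP response list. That held for 8.14% of all tested genes.

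Of 12 BMP receptors and co-receptors 8 were tested; 3 rose in the mean over lines (10.9% of all genes did) and none fell, and without the 2 libraries that stood apart 5 rose (30% of all genes). ACVR1, a type I receptor that phosphorylates BMP SMADs, rose by 1.42 ± 0.29 log2 (limma adjusted p = 0.0103). It was at 0.37 and 0.13 FPKM in PC9 DMSO and at 1.53 and 0.62 FPKM in dormant PC9, at 1.28 and 0.715 then 5.54 and 5.54 FPKM in HCC827, and at 3.2 and 4.24 then 9.03 and 26.6 FPKM in HCC4006. No line's groups overlapped.

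RGMB, a membrane-bound BMP co-receptor, rose by 0.83 ± 0.16 log2 over the lines (limma adjusted p = 0.00895), from 0.66 and 1.38 to 6.21 and 5.64 FPKM in HCC4006. RGMB-AS1 overlaps RGMB on the other strand and was at 5.48 FPKM at most. Whether the values used strand is not given in the sources used here, so the value of RGMB is uncertain. BMPR1A, another type I receptor, rose by 0.81 ± 0.23 (limma adjusted p = 0.0413). That call did not hold in 10 of the 12 fits without 1 library. Of 11 other BMP ligands 1 was tested, BMP8B, which rose by 0.44 ± 0.12 (limma adjusted p = 0.0396) and was over 1 FPKM only in dormant HCC827, at 2.18 and 2.36 FPKM. BMP8B has a near-identical copy, BMP8A, that was at 0.03 FPKM at most, and it overlaps PPIE on the other strand, so its value is uncertain.

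Of 16 extracellular BMP antagonists and modulators 7 were tested, and 1 rose, GREM1, a share near the 10.9% of all genes. Without the 2 libraries 3 rose, against 30% of all genes. GREM1, a secreted protein that binds BMP2 and BMP4, was at 2.0 and 2.87 FPKM in HCC4006 DMSO and at 15.8 and 85.5 FPKM in dormant HCC4006. In PC9 and HCC827 it stayed at 0.205 FPKM or below. The mean difference of 1.18 ± 0.35 log2 (limma adjusted p = 0.0472) included 3.48 in HCC4006, -0.10 in PC9 and 0.15 in HCC827, and its call was lost in 10 of the 12 fits without 1 library.

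Of 12 SMAD transducers and their regulators 10 were tested; 2 rose, against 10.9% of all genes, and 6 without the 2 libraries that stood apart, against 30%. TOB1, which binds SMADs and dampens BMP signals, was at 19.2 and 14.8 FPKM in PC9 DMSO and at 114.5 and 168.4 FPKM in dormant PC9. HCC827 libraries had it at 3.83 and 2.92 then 7.32 and 9.37 FPKM, and in HCC4006 at 19.4 and 49.3 then 76.9 and 62.6 FPKM. The groups did not overlap in any line, and the mean rose by 1.73 ± 0.30 log2 (limma adjusted p = 0.00505). On the other strand TOB1-AS1 overlaps TOB1, at 8.15 FPKM at most, and SUPT3H overlaps RUNX2, at 3.99 FPKM at most. RUNX2, a SMAD partner known from bone, rose by 0.77 ± 0.21 (limma adjusted p = 0.0387), which was lost in 9 of the 12 fits without 1 library.

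Of 12 other BMP response genes 5 were tested, and 4 were called higher: ATOH8, DLX5, DLX3 and GATA2, all transcription factors. Of all tested genes 10.9% rose. As all 5 passed the filter only through dormant libraries, the count is a description. Among all tested genes 1197 reached 1 FPKM only in dormant libraries, and 461 of these rose in the mean over lines. ATOH8 rose by 0.88 ± 0.19 log2 (limma adjusted p = 0.0135), from 0.21 and 0.475 to 9.48 and 3.69 FPKM in HCC4006, and stayed at 0.135 FPKM or below in PC9 and HCC827. DLX5 rose by 0.81 ± 0.11 (limma adjusted p = 0.0017). It was listed at 0 in all PC9 libraries and in both HCC827 DMSO libraries. DLX3 rose by 0.71 ± 0.14 (limma adjusted p = 0.00841) and was low in all lines, at 1.52 FPKM at most.

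GATA2 rose by 0.45 ± 0.12 log2 (limma adjusted p = 0.0312). Of the 10 fits without 1 library that tested it, 8 lost the call. It was at 0.42 and 0.44 FPKM in PC9 DMSO and at 1.65 and 2.59 FPKM in dormant PC9, and did not exceed 0.335 FPKM in the other lines. GATA2-AS1 overlaps GATA2 on the other strand and was at 1.78 FPKM at most. The call of ATOH8 was lost in 2 of 10 such fits and that of BMP8B in 6 of 10, and those of DLX3, DLX5, RGMB, ACVR1 and TOB1 in none.

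Of 7 E proteins and helix-loop-helix partners of the ID proteins 4 were tested, and none rose or fell in the mean over lines (limma), with 1 higher at an unadjusted p under 0.05, where 22.6% of all genes were. Without the 2 libraries 1 rose, against 30% of all genes.

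Of 7 genes of the TGF-beta response, the neighbouring SMAD pathway, all were tested; 2 rose in the mean over lines (limma) and none fell, against 10.9% and 4.55% of all genes. At an unadjusted p under 0.05, 3 were higher and 1 lower, against 22.6% and 9.64% of all genes. Without the 2 libraries that stood apart 3 rose and 1 fell, against 30% and 12.8%. CDKN2B, a cell cycle inhibitor, was at 0.44 and 0.935 FPKM in PC9 DMSO and at 13.8 and 17.0 FPKM in dormant PC9. It was at 1.15 and 0.745 then 25 and 15.2 FPKM in HCC827, and was listed at 0 in all 4 HCC4006 libraries. Its mean rose by 2.23 ± 0.21 log2 (limma adjusted p = 0.00028). CDKN2B-AS1 overlaps CDKN2B on the other strand and was at 2.32 FPKM at most. SKIL, a SMAD corepressor, rose by 1.94 ± 0.37 (limma adjusted p = 0.00785). TGFBI, a matrix protein named after its value was seen, fell in PC9, with a difference of -4.36 log2 (limma adjusted p = 0.00326). That call was lost without either PC9 DMSO or the second dormant PC9 library (adjusted p up to 0.0717).

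**Figure D4:**
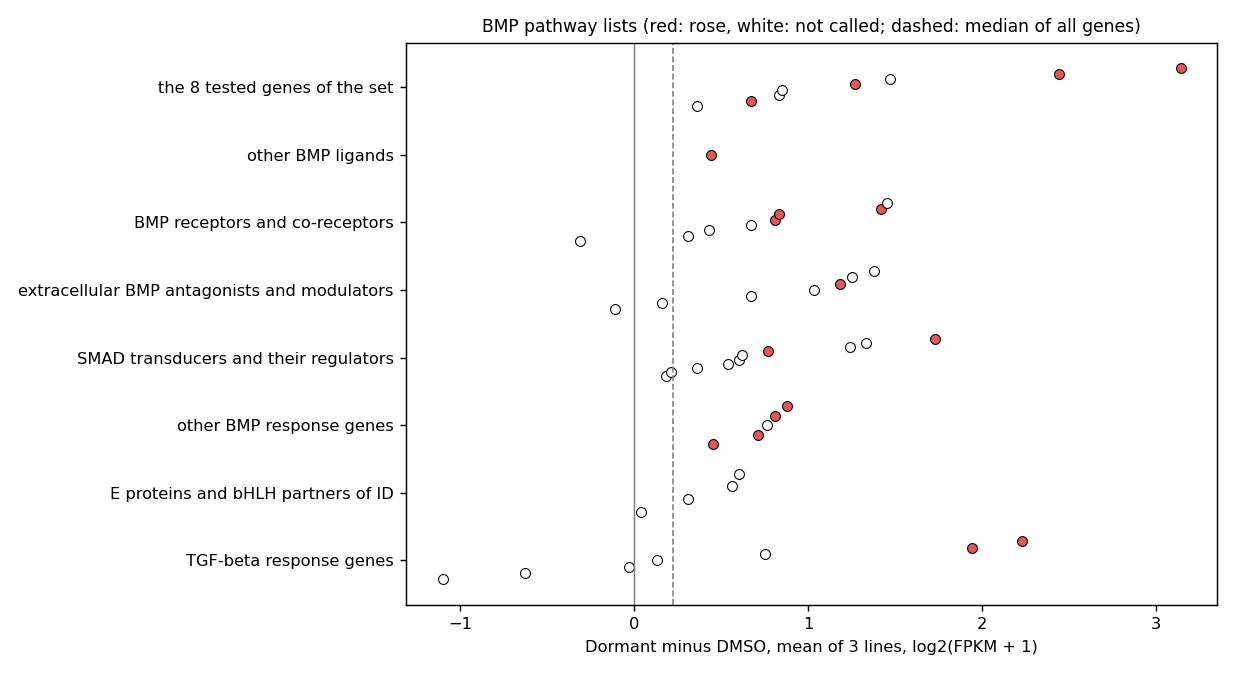
Each point is the mean over the 3 lines of the dormant minus DMSO difference of log2(FPKM + 1) for 1 tested gene, by list; red points have an adjusted p under 0.05 and the dashed line is the median of all tested genes, 0.22. ID3, at 3.14, lies farthest to the right.

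The genes whose pattern was most like that of a gene of the set were taken by Pearson r of log2(FPKM + 1) over the 12 libraries, as a description without a test. For ID3 they were CYP1A1 (r = 0.975), HBP1 (0.968) and LAPTM4A (0.961), and r was 0.977, 0.969 and 0.960 over the 10 libraries left without those that stood apart. For ID2 they were KDM6A (0.984), MARCKSL1 (0.982) and GXYLT2 (0.982). For ID1 they were CDKN1A, a cell cycle inhibitor (0.959), PGRMC1 (0.948) and ULK3 (0.924).

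For SMAD7 the closest gene was ARAF (0.978), for SMAD9 KIF1B (0.987), for BMP4 the pseudogene RNA5SP392 (0.961), for BAMBI ZNF682 (0.988) and for ID4 SLIT2 (0.978). The last 2 fell to 0.960 and 0.904 over the 10 libraries. Within the set, ID2 and SMAD7 had r = 0.87 over 12 libraries and 0.937 over 10, while ID1 and ID3 had 0.365 and 0.147. All these points share library, line and treatment.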

How the data were processed

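RNA of 12 libraries from 3 cell lines was measured with a stranded mRNA kit, per the labels' protocols. The deposited values are FPKM per gene, computed by the authors. Tools named in the submitters' processing notes, with no role or order, were DESeq2 1.10.1, STAR 2.5.1b and Cufflinks 2.2.1; the named builds were GRCh37 and hg19. Each library has 2 value columns, which differed by 11% at most for the 10 genes; what each holds is not given in the sources used here, and they were averaged.

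No read counts were used, so sequencing depth is unknown. Relative depth was read from the most frequent value among 1273 U6 genes (tolerance 5%), taken as that of a single read. Only values of 0.3 FPKM or more in the R1 column of each library were used. Groups came from the sample titles. With R 4.3.3 and limma 3.58.1, log2(FPKM + 1) was fitted with 1 mean for each of the 6 groups and a shared spread (6 residual degrees of freedom, prior 3.8), eBayes with trend, two-sided, with Benjamini-Hochberg adjustment over 14699 genes with at least 1 FPKM in 2 or more libraries. No scaling was added. On simulated data with the real genes, the mean over lines recovered 5.71% of changes of 1 log2, 61.4% of 2 and 93.3% of 4, with 3 false calls. Within PC9, HCC827 and HCC4006, 12.9%, 8.57% and 15.7% of changes of 2 log2 were recovered. Changes were added only to genes with a mean log2(FPKM + 1) over 2, and each gene had the same spread in all libraries. The rates therefore do not cover genes of lower level or the libraries that stood apart.

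The 10 genes and all lists were chosen with earlier results of these data known; a gene of the TGF-beta response list is not reported here. All 10 are named. From each other list, at most the 4 called genes with the largest mean difference, plus any called in every line, are named. Outside this rule, TGFBI and PMEPA1 were named after their values were seen. BMPR1B, TCF4 and LDLRAD4 are named only for how they passed the filter. For likeness at most the 3 genes of highest r are named. Alternatives were a pseudocount of 0.1, no filter, a filter on 6 libraries, median of ratios scaling, quantile normalization, either value column, a replicate block, array quality weights, each library left out, and both libraries that stood apart left out. For the last, the fit quoted in the report kept the 14699 genes and was chosen after seeing the data. Replicate numbers were not taken to pair samples. Tables and figures were made with Python 3.11.15, pandas 2.3.3, numpy 2.4.6 and matplotlib 3.10.9. Promoters were from RefSeq, and gene overlaps were read by name from GENCODE.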

Additional observations from a re-analysis of the deposited data

Results flagged for a closer look

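None of the 8 tested genes of the set passed the moderated F test for a difference that varied between PC9, HCC827 and HCC4006. At an unadjusted p under 0.05, 4 of the 8 did, against 12.4% of all genes. Of the 42 tested genes of the surrounding lists 5 passed at an adjusted p under 0.05, or 11.9%, against 1.48% of all genes. The lists were chosen with earlier results of these data known. BMP8B and DLX5 also reached 1 FPKM only in dormant libraries, so the share of these 5 calls is a description. When 1 library was left out, these calls were lost in most fits: 8 of the 10 that tested BMP8B, 10 of 10 for DLX5, 7 of 12 for CDKN2B, 8 of 12 for TGFBI and 10 of 12 for PMEPA1, with adjusted p up to 0.203, 0.216, 0.101, 0.166 and 0.234. All 5 passed without both libraries that stood apart. BMP8B (limma adjusted p = 0.047) had a difference of 1.47 log2 in HCC827, against -0.05 in PC9 and -0.09 in HCC4006. DLX5 (limma adjusted p = 0.0365) was at 1.69 log2 in HCC4006, 0.74 in HCC827 and listed at 0 in all PC9 libraries. CDKN2B (limma adjusted p = 0.0141) was at 3.29 log2 in PC9 and 3.41 in HCC827 and listed at 0 in all HCC4006 libraries. TGFBI (limma adjusted p = 0.0206) was at -4.36 log2 in PC9, 0.80 in HCC827 and 0.26 in HCC4006. PMEPA1 (limma adjusted p = 0.0445), an inhibitor of TGF-beta signalling, was at -2.32 log2 in PC9, 2.42 in HCC827 and 0.31 in HCC4006.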

How the results depend on the processing

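The mean differences of ID2, ID3 and SMAD7 over lines passed in every alternative run; that of SMAD9 did not with array quality weights (adjusted p = 0.0569) and could not be tested under a filter on 6 libraries or where a dormant HCC4006 library was left out and the filter reapplied. Median of ratios scaling moved the median of all genes from 0.22 to 0.0335 log2, and with it the mean differences to 2.85 for ID3, 2.2 for ID2, 1.08 for SMAD7, 0.51 for SMAD9 and 0.06 for ID1.

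Counts of the 8 genes called moved by over 1.5 times as follows. Square brackets hold the number of all genes called in the same fit. PC9 (1) gave 2 [246] with a pseudocount of 0.1 and 4 [4487] with array quality weights. It gave 2 without both libraries that stood apart, with [3294] or without [3191] the gene filter reapplied. HCC827 (4) gave 2 [579] with no filter. HCC4006 (3) gave 0 [24] with array quality weights, 6 [2559] without both libraries, and 7 [2734] with all genes kept. The mean over lines (4) gave 7 [6299] without both libraries with all genes kept. Within 1.5 times, it gave 6 [6086] with the filter reapplied and 6 [2120] with a pseudocount of 0.1, which gained ID4 and BMP4. Differences that varied between lines (0) gave 2 [465] with array quality weights, 2 [1220] without both libraries and 3 [1311] with all genes kept. DMSO levels (2) gave 6 in those 3 settings [6257, 7135 and 7116]. Dormant levels (4) gave 7 [9167] without both libraries with all genes kept. Leaving out 1 library at a time gave 0 to 2 in PC9, 0 to 4 in HCC827, 0 to 6 in HCC4006, 4 to 6 in the mean, 0 to 5 for differences between lines, 1 to 6 for DMSO levels and 2 to 6 for dormant levels.

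Replicate numbers were not taken to pair the samples. Deviations of same-numbered libraries had r of 0.0906 in PC9, 0.0372 in HCC827 and 0.168 in HCC4006. With 2 libraries a group, these values cannot show whether same-numbered plates were handled together. With the replicate block, which leaves 3 residual degrees of freedom, the counts were 0 in PC9, 0 in HCC827 and 4 in the mean, where ID3 had an adjusted p of 0.0109.

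The counts of all genes called moved too: with 1 library left out they ranged from 66 to 1644 in PC9 (399 with all libraries), 40 to 3021 in HCC827 (661) and 95 to 8303 in HCC4006 (892), and with array quality weights they were 4487 in PC9 and 24 in HCC4006. For differences between lines they ranged from 42 to 7802 (217), for DMSO levels from 633 to 6344 (1769) and for dormant levels from 1671 to 10616 (4639). The replicate block gave 123 in PC9, 162 in HCC827 and 486 in HCC4006. In the mean over lines the 2268 genes ranged from 986 to 7087 with 1 library left out, the highest without the first dormant HCC4006 library. They numbered 1498 with no filter, 1497 with a filter on 6 libraries, 6086 without both libraries and 6299 with all genes kept.

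Differences that changed sign did not pass before. Without both libraries, in either form, BAMBI in HCC827 was 0.32 and BMP4 in HCC4006 was 0.58, and BMP4 in PC9 was 0.01 from the R1 columns. Leaving out 1 library gave -0.06 to 1.19 for ID1 in HCC4006, -0.43 to 0.32 for BAMBI in HCC827, -0.20 to 0.13 for BMP4 in PC9 and -1.07 to 0.58 for BMP4 in HCC4006. The causes were not tested.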
